A study of Homo sapiens with 9 samples.

Results

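The Wnt target and feedback genes described here are AXIN2, SP5, LGR5, RNF43, ZNRF3, NKD1, ASCL2, TCF7, LEF1 and NOTUM, 10 of the 62710 genes of the count table. They are picked out by symbol, as genes that are known to be switched on by Wnt signaling or to damp it. Of the 10, 9 had reads and were tested, and LEF1 had 0 counts in all 9 libraries, which allows up to 3 counts in each.

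Wnt ligands bind Frizzled and LRP co-receptors on the cell surface and so inhibit a cytoplasmic complex of AXIN, APC and kinases that marks β-catenin for degradation. The β-catenin that escapes enters the nucleus and, with TCF and LEF factors, activates target genes, several of which encode inhibitors of the pathway itself and so form a negative feedback loop. In the intestine this pathway maintains the stem cells at the crypt base, and in most colorectal cancers it is active without a ligand because APC is truncated, as it is in HT-29, an established line of human colorectal adenocarcinoma cells.

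Poly(A) RNA of wild-type HT-29 cells was sequenced in 3 groups of 3 libraries. One group was not stimulated, another received flagellin, the protein of bacterial flagella that activates the receptor TLR5, and the third received ADP-heptose, a sugar metabolite of Gram-negative bacteria that activates the kinase ALPK1 and, through it, NF-κB. Both stimuli were given at 500 ng/mL for 2.5 h per the study's methods. The study set out to learn how ADP-heptose changes transcription in tumor cells, with flagellin as a second bacterial stimulus. All libraries come from 1 cell line, and in such bulk samples fewer cells that express a gene and less of its RNA per cell cannot be told apart.

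Total counts ran from 35040844 to 37537705 in the non-stimulated libraries, from 30770448 to 38304035 after flagellin and from 50054773 to 58272772 after ADP-heptose. The cytokine gene CCL20 had 64 to 70 counts in non-stimulated cells, 1421 to 1939 after flagellin and 21125 to 26781 after ADP-heptose, so each stimulated library showed a response. In the text below, levels are in CPM, counts per unit of library total after TMM scaling, which corrects for differences in RNA composition. All 8 markers of colon epithelium were detected in each group, with a summed level of 8130 to 8500 CPM in non-stimulated, 8330 to 8660 in flagellin and 8920 to 12600 in ADP-heptose libraries. Of 8 markers of fibroblasts, leukocytes and endothelium, 5, 5 and 4 were at 0 in every library of the respective group, and their sums were 12.6 to 14.7, 12.4 to 16.0 and 17.1 to 19.1 CPM. The epithelial gene KRT20 (log2 fold change 0.40, adjusted p = 9.4e-04) and COL1A1 of the second list (0.41, adjusted p = 0.0311) were higher with ADP-heptose, and their part in the results was not tested. The other 7 epithelial markers were not called and did not all move upward. Among them, CDX2 had a log2 fold change of -0.95 (95% interval -1.87 to -0.02, adjusted p = 0.19). Replicate 3 of ADP-heptose was unlike its 2 companions. Over 12168 genes the SD of its log2 difference from each of them was 0.38, whereas it was 0.13 between those 2 and 0.17 to 0.20 within the other groups. Its difference from their mean was correlated across genes, which are not independent replicates, with exon length (Pearson r = -0.47 over 12004 genes) and with GC content (r = 0.41). The part of this in the results was not tested, and values without that library are given beside those with it.

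RefSeq promoter windows, from 250 bases before to 50 bases after a transcript start on GRCh38.p14, were at hand for 4 of the 10 genes. They were searched on both strands for the letters CTTTGA and CTTTGT, the core recognized by TCF and LEF factors, because this is the element through which Wnt target genes are known to be read. The windows of SP5 and RNF43 are shown since both genes changed in these data, with the matches in capitals (TCAAAG and ACAAAG are the same letters on the other strand).
SP5 (chr2:170715087-170715386, plus strand): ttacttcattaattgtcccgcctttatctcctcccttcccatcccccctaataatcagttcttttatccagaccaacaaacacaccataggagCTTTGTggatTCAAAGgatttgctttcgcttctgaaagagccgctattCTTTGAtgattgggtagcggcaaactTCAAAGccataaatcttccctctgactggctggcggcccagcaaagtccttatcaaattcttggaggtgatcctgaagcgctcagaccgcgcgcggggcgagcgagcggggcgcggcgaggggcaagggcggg
RNF43 first start (chr17:58417485-58417784, minus strand): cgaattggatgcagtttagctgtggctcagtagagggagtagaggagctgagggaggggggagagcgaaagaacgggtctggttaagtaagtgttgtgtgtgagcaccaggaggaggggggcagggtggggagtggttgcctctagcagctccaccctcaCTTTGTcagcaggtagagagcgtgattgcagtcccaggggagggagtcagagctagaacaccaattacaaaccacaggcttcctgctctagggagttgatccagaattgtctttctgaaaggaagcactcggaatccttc
RNF43 second start (chr17:58402672-58402971, minus strand): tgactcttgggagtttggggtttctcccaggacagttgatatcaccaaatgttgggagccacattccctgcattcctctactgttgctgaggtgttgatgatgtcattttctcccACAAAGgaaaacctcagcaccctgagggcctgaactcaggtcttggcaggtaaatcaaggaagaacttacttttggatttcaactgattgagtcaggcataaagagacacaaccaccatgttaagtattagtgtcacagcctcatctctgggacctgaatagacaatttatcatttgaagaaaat
The SP5 window held 4 matches, which begin 157, 147, 109 and 83 bases before the start. Each RNF43 window held 1 match, 90 bases before the first start and 135 bases before the second. Of 34943 windows in the RefSeq table, 26.2% held at least 1 match, 5.34% at least 2, 0.89% at least 3 and 0.112%, or 39 windows, at least 4. A single match, as in RNF43, was therefore common among promoters, and 4, as in SP5, were rare. TCF7 had 0 matches in the window of its first start and 2 in that of its second, and LEF1 had 0. These matches are letters and not measured binding sites, and their part in any change was not tested.

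In non-stimulated cells the level of each gene was compared per kilobase of annotated exon, since longer genes collect more reads. AXIN2 was the highest, at 16.4 ± 0.228 CPM per kilobase (SD, n = 3 here and throughout), followed by ZNRF3 at 9.17 ± 0.781, RNF43 at 7.69 ± 0.104, ASCL2 at 7.25 ± 0.765 and SP5 at 6.95 ± 0.288. TCF7 stood at 4.27 ± 0.296, LGR5 at 1.73 ± 0.0516 and NKD1 at 0.418 ± 0.0521, and NOTUM was nearly silent at 0.0741 ± 0.0286 CPM per kilobase. The ranges of the 3 libraries overlapped between RNF43 and ASCL2 and between ASCL2 and SP5, so the order within these pairs lay within the spread, and all other neighbors in this order were apart. The exon length used is that of all annotated transcripts together, 17.4 kb for NKD1 and 10.1 kb for TCF7, and lowers the level per kilobase of a gene that uses few of its exons. After ADP-heptose the order changed at the top. ASCL2 was at 6.72 ± 1.17, ZNRF3 at 6.66 ± 1.16 and AXIN2 at 6.36 ± 0.646 CPM per kilobase, with overlapping ranges, so that AXIN2 no longer stood above the rest. The first place of ASCL2 rests on replicate 3, which held its highest value, 8.03, and the lowest of AXIN2, 5.61, and ZNRF3, 5.34. In replicates 1 and 2, ZNRF3 was the highest of these genes, AXIN2 came next and ASCL2 was the lowest.

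ADP-heptose lowered 5 of the 9 tested genes, namely AXIN2, SP5, LGR5, RNF43 and ZNRF3, and raised 0 (edgeR's quasi-likelihood test, adjusted p under 0.05 over all genes). DESeq2 also raised 0, and 0 were higher at an unadjusted p under 0.05. Across the 17412 genes tested, 4.42% were called lower and 7.48% higher. The median log2 fold change was -0.46 over the 9 genes and 0.009 over all genes. The genes were chosen with earlier results of these data known, so their excess over these shares is not independent support. The same 5 genes were those whose ADP-heptose libraries all lay below all non-stimulated libraries, a pattern seen in 14.7% of the genes tested. When a change of at least 2-fold was also required, only AXIN2 remained, against 0.471% of all genes. With flagellin at the same dose and time 0 of the 9 were called, where 0.379% of all genes were. The same dose did not give a response of the same size. CCL20 rose 26.7-fold with flagellin and 257-fold with ADP-heptose, which had 11.9% of all genes called in either direction. The part of this weaker response in the difference between the stimuli was not tested.

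**Figure D1:**
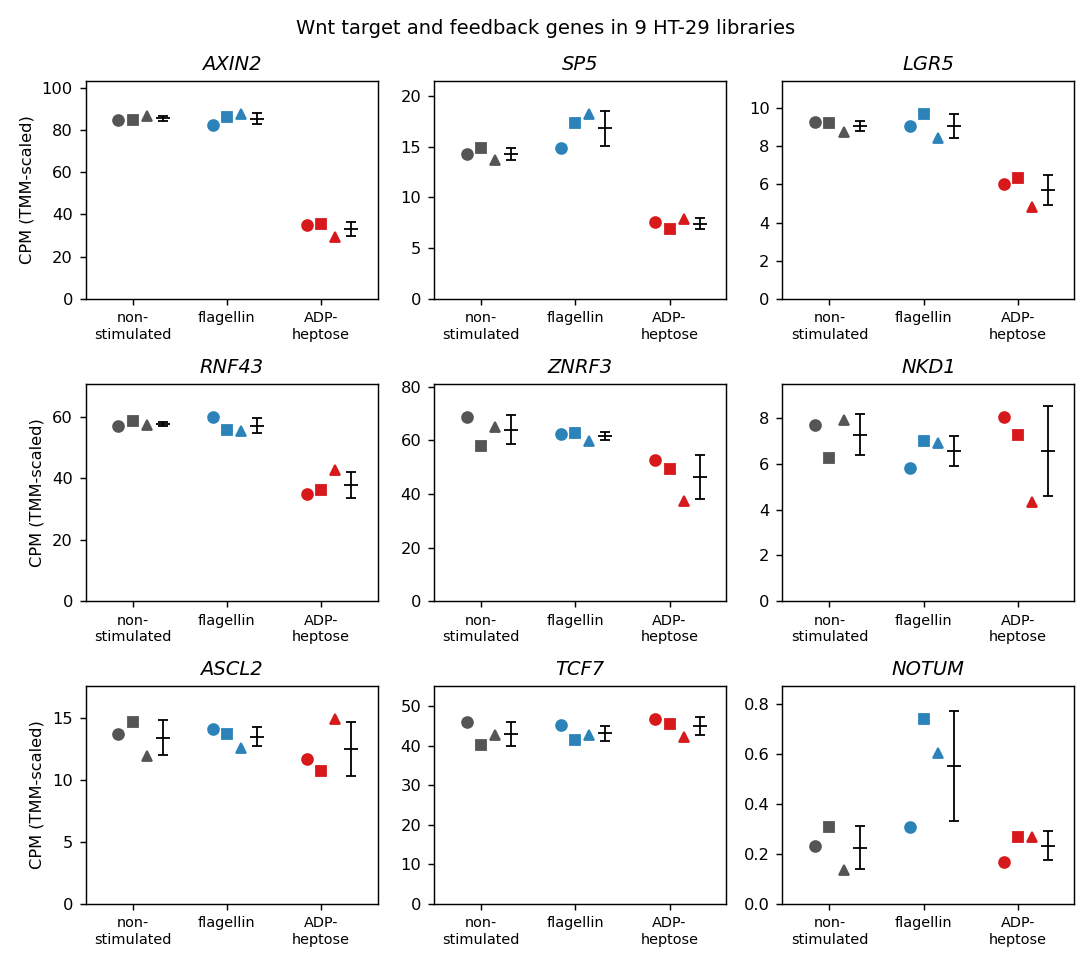
Levels of the 9 detected Wnt target and feedback genes in TMM-scaled CPM (vertical axes, from 0) in the 3 libraries of each group (circle, square and triangle are replicates 1, 2 and 3), with the mean and SD in black. AXIN2, SP5, LGR5, RNF43 and ZNRF3 are lower in each of the 3 ADP-heptose libraries than in any non-stimulated library, NKD1, ASCL2 and TCF7 overlap among all groups, and NOTUM stays below 1 CPM.

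AXIN2 (ENSG00000168646, chromosome 17, 65528563 to 65561647 of GRCh38 on the minus strand) encodes a scaffold of the β-catenin degradation complex, and is widely used as a readout of Wnt signaling because it is induced by the pathway that it restrains. Its level was 84.9, 84.6 and 86.8 CPM in the non-stimulated libraries and 34.9, 35.5 and 29.3 after ADP-heptose. Every ADP-heptose library was thus well below the lowest control, and the 2 groups were separated by far more than their spread. Mean levels were 85.5 ± 1.19 and 33.2 ± 3.38 CPM. AXIN2 fell 2.57-fold, a log2 fold change of -1.36 (SE 0.08, 95% interval -1.54 to -1.19, adjusted p = 2.2e-07). It was the 6th most lowered of the 12168 genes with a mean of at least 1 on the log2 CPM scale. Without ADP-heptose replicate 3, the lowest of the libraries, the log2 fold change was -1.28. AXIN2 overlaps ENSG00000266076 on its own strand (at most 6 counts), and how shared reads were counted is not given.

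RNF43 and ZNRF3 are membrane E3 ubiquitin ligases that remove Frizzled receptors from the cell surface, and R-spondins amplify Wnt signaling by clearing these ligases through LGR receptors. RNF43 (ENSG00000108375, chromosome 17, 58352500 to 58417595, minus strand) was at 57.2, 58.6 and 57.3 CPM in non-stimulated cells and at 34.8, 36.2 and 42.7 after ADP-heptose. All 3 stimulated libraries were lower, with replicate 3 the least so. The fall was 1.52-fold (log2 fold change -0.61, SE 0.08, 95% interval -0.79 to -0.42, adjusted p = 3.9e-04), and -0.70 on the log2 scale without replicate 3. RNF43, with 1683 to 2342 counts, overlaps TSPOAP1-AS1 on the opposite strand (89 to 212 counts). On its own strand it overlaps SUPT4H1 (at most 6 counts) and ENSG00000285897 (at most 15). How reads shared by overlapping genes were counted is not given, so these low counts do not show that RNF43 was unaffected. ZNRF3 (ENSG00000183579, chromosome 22, 28883592 to 29057487, plus strand) was at 68.8, 58.0 and 64.9 CPM in non-stimulated cells and at 52.6, 49.4 and 37.2 after ADP-heptose. Here replicate 3 was the lowest, and the gap between the groups, from 52.6 to 58.0 CPM, was narrower than the spread within either. ZNRF3 fell 1.38-fold (log2 fold change -0.46, SE 0.12, 95% interval -0.71 to -0.21, adjusted p = 0.0213). Its call was lost without non-stimulated replicate 1 (adjusted p = 0.107), without non-stimulated replicate 3 (0.0823) and in a fit of only the 6 libraries compared (0.0754). It was kept without ADP-heptose replicate 3, at a smaller log2 fold change of -0.32 (adjusted p = 2.4e-04).

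LGR5 (ENSG00000139292, chromosome 12, 71439770 to 71586310, plus strand) encodes a receptor for R-spondins and is the best known marker of intestinal stem cells. It was expressed at 9.27, 9.22 and 8.77 CPM in non-stimulated cells and at 6.0, 6.31 and 4.79 CPM after ADP-heptose, with no overlap. LGR5 fell 1.59-fold (log2 fold change -0.67, SE 0.12, 95% interval -0.94 to -0.40, adjusted p = 0.00298). Without ADP-heptose replicate 3 the log2 fold change was -0.56 (adjusted p = 7.3e-04). The gene overlaps TSPAN8 on the opposite strand, which had 7702 to 12826 counts against 217 to 362 for LGR5. Whether the counting used strand is not given in the sources used here, so reads of the 2 genes may not be fully told apart. TSPAN8 itself had a log2 fold change of -0.04 (adjusted p = 0.798).

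SP5 (ENSG00000204335, chromosome 2, 170715351 to 170718078, plus strand) encodes a zinc finger factor that is a direct target of β-catenin and binds the promoters of other Wnt targets. Its level was 14.3, 14.9 and 13.7 CPM in the non-stimulated and 7.57, 6.86 and 7.84 CPM in the ADP-heptose libraries. The highest stimulated library lay far below the lowest control, and replicate 3 did not stand apart for this gene. SP5 fell 1.93-fold (log2 fold change -0.95, SE 0.10, 95% interval -1.18 to -0.72, adjusted p = 5.2e-05), the 40th most lowered of the 12168 genes. Without ADP-heptose replicate 3 the log2 fold change was -0.99.

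The other transcription factors did not pass the test. ASCL2 (ENSG00000183734, chromosome 11, 2268495 to 2270952, minus strand), a factor that maintains intestinal stem cells, was at 13.7, 14.7 and 11.9 CPM in non-stimulated cells and at 11.7, 10.7 and 14.9 CPM after ADP-heptose. Replicates 1 and 2 of ADP-heptose were thus below every control and replicate 3 above every control. Its log2 fold change was -0.11 (95% interval -0.39 to 0.17, adjusted p = 0.63), and -0.25 (adjusted p = 0.0996) when replicate 3 was left out. When length and GC content were corrected by offsets in the fit, an alternative added after replicate 3 was seen to differ, it was -0.40 (adjusted p = 0.00723). ASCL2 was thus called only with these offsets, which act on all 9 libraries. TCF7 (ENSG00000081059, chromosome 5, 134114711 to 134151865, plus strand) encodes the DNA-binding partner TCF1 and overlaps SKP1 on the other strand (233 to 507 counts). TCF7 was at 46.0, 40.1 and 42.7 CPM in the controls and at 46.7, 45.6 and 42.3 CPM after ADP-heptose, with overlapping groups. The interval of its log2 fold change of 0.06 was narrow, from -0.11 to 0.23 (adjusted p = 0.652), so a fall of the size seen in AXIN2, SP5, LGR5 or RNF43 lay outside it, and the value was 0.11 without replicate 3. LEF1 (ENSG00000138795, chromosome 4, 108047545 to 108168956, minus strand), a DNA-binding partner of the same family, was listed at 0 throughout.

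The remaining feedback inhibitors, NKD1 and NOTUM, did not pass either. NKD1 (ENSG00000140807, chromosome 16, 50548330 to 50649249, plus strand) acts in the cytoplasm on Dishevelled, and was at 7.68, 6.24 and 7.91 CPM in the controls and at 8.06, 7.27 and 4.35 CPM after ADP-heptose. Only replicate 3 was low. Its log2 fold change of -0.15 had an interval from -0.58 to 0.28 (adjusted p = 0.678), and the value was 0.08 without that library, so even its direction rests on replicate 3. NOTUM (ENSG00000185269, chromosome 17, 81952507 to 81961840, minus strand) encodes a secreted enzyme that inactivates Wnt ligands by removing their lipid. It had 9, 11 and 5 counts in the controls, 12, 26 and 19 after flagellin and 8, 15 and 12 after ADP-heptose. At this depth its log2 fold change after ADP-heptose, 0.06, could only be placed between -1.05 and 1.17 (adjusted p = 0.954), an interval that holds a fall as large as that of SP5. Without ADP-heptose replicate 3 it was -0.03.

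The flagellin comparison shares its 3 control libraries with the one above. Of the 9 genes, 0 passed an adjusted p of 0.05 in edgeR and 0 passed in DESeq2. At 0.379% of all genes called, 0 of 9 is near the background. The median log2 fold change was -0.00 over the 9 genes and 0.005 over all genes. AXIN2 was at 82.3, 86.1 and 87.4 CPM after flagellin, overlapping the controls, and its log2 fold change of -0.00 had an interval from -0.18 to 0.17. LGR5 was at 9.08, 9.68 and 8.45 CPM (log2 fold change -0.00, 95% interval -0.26 to 0.26). RNF43 was at 60.1, 55.9 and 55.5 CPM (log2 fold change -0.01, 95% interval -0.20 to 0.17). For these 3 genes, a fall of the size seen with ADP-heptose lay outside the interval of the flagellin comparison. The same held for ZNRF3 and SP5, whose intervals are given below. The intervals of ZNRF3 (-0.30 to 0.20), NKD1 (-0.59 to 0.29), ASCL2 (-0.28 to 0.29) and TCF7 (-0.17 to 0.18) all held 0.

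Before adjustment, 2 of the 9 genes had a p under 0.05 with flagellin, SP5 and NOTUM, as against 3.78% of all genes. SP5 was at 14.9, 17.3 and 18.2 CPM, with its lowest library inside the range of the controls (log2 fold change 0.23, 95% interval 0.01 to 0.45, adjusted p = 1). NOTUM was higher in each flagellin library than in any control, at 0.308, 0.738 and 0.602 CPM against 0.230, 0.306 and 0.134, a separation seen upward in 7.66% of all genes. Its lowest flagellin library and highest control differed by 1 count, at 12 and 11. The log2 fold change of 1.28 (SE 0.49, 95% interval 0.21 to 2.35, adjusted p = 1) rests on at most 26 counts a library and did not pass.

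**Figure D2:**
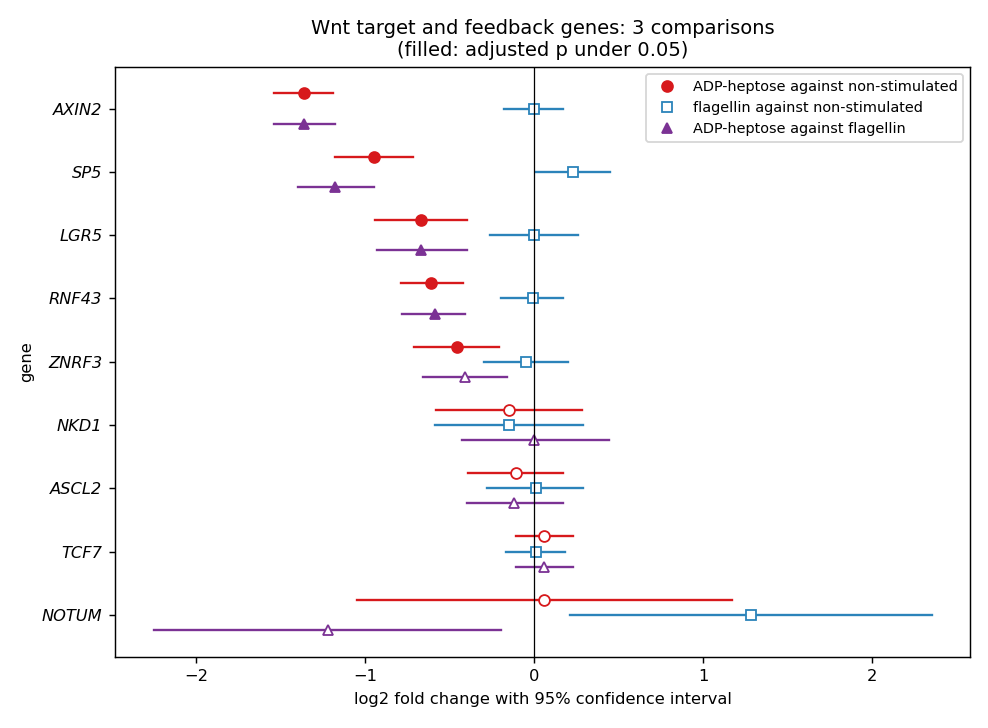
Log2 fold changes (points) with 95% confidence intervals (lines) of the 9 tested genes in the 3 comparisons, with filled points where the adjusted p was under 0.05. The red and purple points of AXIN2, SP5, LGR5 and RNF43 are filled and left of 0, from -1.36 to -0.59, while no blue point, for flagellin against non-stimulated, is filled.

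The comparison of ADP-heptose with flagellin is the direct test of whether the stimuli differed, and it shares its libraries with the comparisons above. Of the 9 genes, 4 were called lower and 0 higher, against 2.76% and 5.4% of all genes, and the median log2 fold change was -0.59 (0.007 over all genes). AXIN2 was 2.57-fold lower after ADP-heptose than after flagellin (log2 fold change -1.36, SE 0.08, adjusted p = 3.2e-07). For SP5 the difference was wider than against the controls, 2.26-fold (log2 fold change -1.18, SE 0.10, 95% interval -1.40 to -0.95, adjusted p = 1.1e-05). LGR5 (log2 fold change -0.67, adjusted p = 0.00389) and RNF43 (-0.59, adjusted p = 6.1e-04) differed by about as much as from the controls. ZNRF3 missed the threshold at a log2 fold change of -0.41 (95% interval -0.66 to -0.16, adjusted p = 0.0503), and passed it in 6 of 17 alternative fits. Its 3 ADP-heptose libraries, and those of NOTUM, were also below all flagellin libraries, which makes 6 of the 9 genes, a separation seen downward in 12.8% of all genes. NOTUM was not called (log2 fold change -1.22, 95% interval -2.25 to -0.20, adjusted p = 0.154), nor were ASCL2 (-0.12), NKD1 (0.00) and TCF7 (0.06). Without ADP-heptose replicate 3 the log2 fold changes were -1.27 for AXIN2, -1.21 for SP5, -0.55 for LGR5 and -0.68 for RNF43, all still called. ZNRF3 was then called as well, at a smaller value of -0.26 (adjusted p = 0.00305). NOTUM (-1.31), ASCL2 (-0.25), NKD1 (0.24) and TCF7 (0.11) were again not called.

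The 4 genes that fell most were called in each alternative fit, although SP5, LGR5 and RNF43 do not reach a minimum change of 2-fold. Over 17 such fits of ADP-heptose against non-stimulated cells, all of AXIN2, SP5, LGR5 and RNF43 passed the threshold each time, with log2 fold changes from -1.49 to -1.28 for AXIN2, -1.21 to -0.90 for SP5, -0.80 to -0.56 for LGR5 and -0.75 to -0.56 for RNF43. ZNRF3 passed in 14 of the 17, between -0.59 and -0.32. ASCL2 passed in 1, and NKD1, TCF7 and NOTUM in 0. Scaling by library totals in place of TMM moved the median of all genes to -0.13 and the share of lower genes among all called from 37.2% to 67.3%, and offsets for length and GC content moved that share to 52.4%. The falls of AXIN2, SP5, LGR5, RNF43 and ZNRF3 were past the threshold under both, and relative to the shifted median those with library totals were of like size.

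The other components of the pathway were followed with 7 lists of 96 genes, 63 of which were tested. With ADP-heptose 10 were called higher and 6 lower, and with flagellin 1 was higher and 0 lower. Of all genes, 7.48% were called higher and 4.42% lower with ADP-heptose, and 0.379% in either direction with flagellin. The lists were chosen with earlier results of these data known, so an excess over these shares is not independent support. All genes of the lists called with ADP-heptose against the controls were also called without ADP-heptose replicate 3, where the log2 fold change was -0.42 for FZD4, -0.36 for LGR4, 1.2 for BCL9L and 1.10 for SOX9. The lists did not all move in the same direction. Among the receptors, 3 of 14 tested were lower and 0 higher (median log2 fold change -0.19). These were the Frizzled receptors FZD4 (-0.63, adjusted p = 0.0408) and FZD2 (-0.59, adjusted p = 0.0013), and LGR4 (-0.49, adjusted p = 0.0109), a receptor for R-spondins like LGR5. LGR4 was at 168, 157 and 167 CPM in the controls and at 126, 129 and 96.1 CPM after ADP-heptose, so LGR4 and LGR5 both fell. FZD4 passed in only 9 and LGR4 in 15 of the 17 alternatives, and FZD7 was lower than after flagellin (-0.36, adjusted p = 0.0298) and did not pass against the controls (-0.14, adjusted p = 0.372).

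Of 8 ligands tested, 3 were higher and 0 lower (median log2 fold change 0.36), against 7.48% and 4.42% of all genes. The other 5, with values on both sides of 0, were not called. The most raised was WNT10A, the single gene of the lists called with flagellin. WNT10A was at 27.7, 28.8 and 28.0 CPM in the controls, 42.3, 40.0 and 38.2 after flagellin and 102, 93.0 and 111 after ADP-heptose. The 3 groups did not overlap, and the log2 fold changes were 0.51 with flagellin (adjusted p = 0.0162) and 1.86 with ADP-heptose (adjusted p = 1.3e-08), with 1.35 between the stimuli (adjusted p = 3.5e-07). The call with flagellin was kept in 11 of 17 alternatives. WNT2B (0.82, adjusted p = 0.0247) and WNT7B (0.27, adjusted p = 0.0311) were higher with ADP-heptose, and kept the call in 11 and 4 alternatives. Of R-spondins and secretion factors, 0 of 2 tested were called, with WLS, the carrier of Wnt ligands, at -0.16 (adjusted p = 0.293). Among 6 antagonists tested, KREMEN2, a receptor for the DKK inhibitors, was higher (1.13, adjusted p = 0.00552) at a low level of 1.80 ± 0.266 CPM in the controls. WNT2B, FZD4 and KREMEN2 overlap ST7L, PRSS23 and PKMYT1 on the opposite strand, with the same limit as for LGR5. On the opposite strand CTNNB1 also overlaps ULK4 (57 to 134 counts), and PROX1 overlaps PROX1-AS1 (51 to 138 counts). PYGO2 overlaps SHC1 on its own strand, where strand would not separate their reads.

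In the degradation complex and its transducers, 1 of 14 tested was called (median log2 fold change 0.05). Of all genes, 11.9% were called in either direction, so this count is not above the background. This was CTNNB1, which encodes β-catenin, at 144, 146 and 135 CPM in the controls and 202, 200 and 185 CPM after ADP-heptose. Its RNA was higher in each stimulated library (log2 fold change 0.46, adjusted p = 4.6e-04), opposite to AXIN2, while the amount of protein was not measured. In the nuclear complex, 2 of 10 tested were higher and 2 lower (median log2 fold change -0.20), against 7.48% and 4.42% of all genes. BCL9L, a coactivator of β-catenin (1.03, adjusted p = 1.9e-04), and TLE3, a corepressor of TCF factors (0.77, adjusted p = 8.2e-05), were higher. The coactivator gene PYGO2 (-0.24, adjusted p = 0.045) and the corepressor gene TLE1 (-0.23, adjusted p = 0.0426) were slightly lower, and kept the call in 6 and 7 alternatives.

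Other genes known to respond to Wnt in intestinal epithelium were split, with 3 of 9 tested higher and 1 lower (median log2 fold change -0.02). The shares of all genes called higher and lower were 7.48% and 4.42%. EPHB3, a receptor that positions cells along the crypt, fell as RNF43 did, from 67.3, 63.3 and 65.2 CPM to 35.2, 35.9 and 41.9 CPM (log2 fold change -0.79, adjusted p = 2.8e-05). MMP7, a matrix protease, was higher (1.75, adjusted p = 6.8e-08), as were the transcription factor genes PROX1 (1.31, adjusted p = 1.3e-04) and SOX9 (0.98, adjusted p = 1.3e-05). SOX9 was at 89.7, 87.1 and 84.7 CPM in the controls and at 187, 185 and 145 after ADP-heptose, higher in each of the libraries in which SP5 was lower. MYC was lower than after flagellin (-0.24, adjusted p = 0.0463) and did not pass against the controls (-0.14, adjusted p = 0.211). The call against flagellin was kept in 6 of 17 alternatives, and without ADP-heptose replicate 3 MYC was also lower than in the controls (-0.19, adjusted p = 0.00235).

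**Figure D3:**
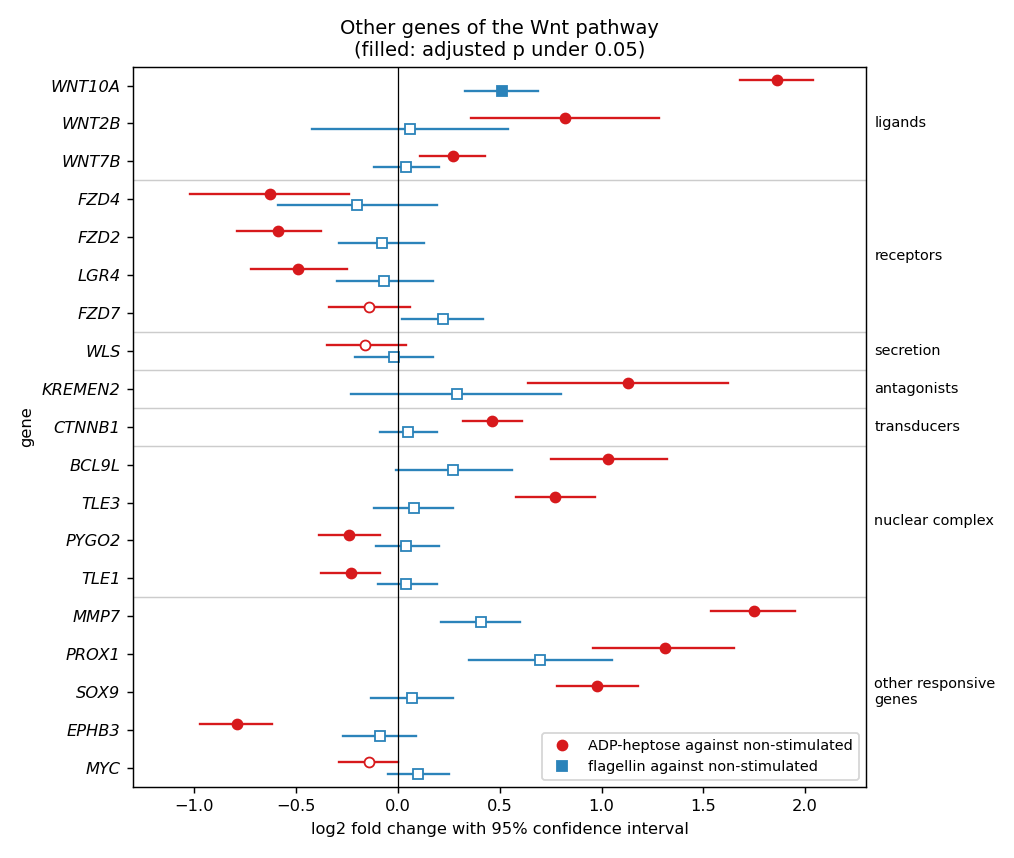
Log2 fold changes (points) with 95% confidence intervals (lines) of the 19 named genes of the 7 pathway lists with ADP-heptose (red) and flagellin (blue) against non-stimulated cells, with filled points where the adjusted p was under 0.05. With ADP-heptose the 3 plotted ligands, CTNNB1, MMP7, PROX1 and SOX9 lie right of 0 and the 4 plotted receptors and EPHB3 left of it, and with flagellin WNT10A alone is filled.

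For the 3 most abundant of the lowered genes, the genes with the most similar profile were sought by Pearson correlation of log2 CPM over the 9 libraries, among 12167 other genes. For AXIN2 these were ZNF792 (r = 0.997), OTX1 (0.994) and RHOU (0.993), and 164 genes reached 0.95. RNF43 was closest to EPHB3 (0.990), USP35 (0.987) and FRAT2 (0.984), with 75 genes at 0.95 or more. ZNRF3 was closest to FUT4 (0.990), MTMR4 (0.985) and C1orf198 (0.984), with 152. These values describe likeness of profile across libraries that share their treatment and, for replicate 3, its departure by length and GC content.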

How the data were processed

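Raw read counts per gene of 9 HT-29 libraries were deposited by the authors, who aligned paired 150-base reads with HISAT2 and counted them with featureCounts. Versions, genome build and strand setting are not given in the sources used here. Of 62972 lines, repeats of 232 gene identifiers held identical counts and were kept once. Gene positions and exon lengths are from GENCODE 29, which held 92.9% of the identifiers. The members and pathway lists were chosen with earlier results of these data known.

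Counts were tested in R 4.3.3 with edgeR 4.0.16 (TMM, filterByExpr, robust quasi-likelihood F test, two-sided), all 9 libraries in one fit by group, and p-values were adjusted by Benjamini-Hochberg over 17412 genes at 0.05. The script was tested on simulated counts, with the same spread setting for every gene and no departing library, unlike these data. Of 200 changed genes edgeR recovered 199, with 3.86% of its calls false, and DESeq2 198, with 8.33% false. An exact permutation test of 3 against 3 libraries cannot go below 0.1. The study describes the replicates as independent experiments, which the labels do not state. If they were not separate cultures, p-values measure only the spread between these libraries. Named were all members, up to 5 genes a pathway list past the threshold in any comparison (by size of change, or the most abundant where none passed), and the 3 genes closest to each of the 3 most abundant members that passed. Alternatives were DESeq2 1.42.0 and its size factors, library totals, no filter, a minimum mean of 10 counts, only the 6 libraries compared, a replicate block, each library left out, a minimum change of 2-fold and, added after seeing the data, offsets for length and GC content.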

Additional observations from a re-analysis of the deposited data

How the results depend on the processing

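Among the 9 genes, the calls of AXIN2, SP5, LGR5 and RNF43 were kept in all 17 alternative fits against non-stimulated cells, and the number called differed by more than 1.5 times only with a minimum change of 2-fold, which left 1 gene with ADP-heptose against non-stimulated and 2 against flagellin. That minimum left 5, 0 and 2 pathway genes and 586, 39 and 409 of all genes in ADP-heptose against non-stimulated, flagellin against non-stimulated and ADP-heptose against flagellin. Leaving out 1 library gave 4 to 5 of the 9 genes called with ADP-heptose against either group, and 0 with flagellin.

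Same-numbered libraries did not deviate together (correlations from -0.38 to 0.22, over 0.1 in 2 of 9 pairs), so replicate numbers were not taken as pairs. With the replicate block, 5, 0 and 4 of the 9 genes were called in the 3 comparisons in the above order, and 0 pathway genes with flagellin and 10 in ADP-heptose against flagellin (16 without it).

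Pathway genes called with flagellin, 1 in the report, numbered 2 with library totals, 3 with DESeq2, without a filter and with offsets, and 4 in a fit of only the 6 libraries. Genes called with flagellin rose from 66 to 106 with DESeq2, 124 without a filter and 143 with 6 libraries. In ADP-heptose against flagellin, 9 pathway genes were called with 6 libraries, and 2187 of all genes with offsets, as against 1421. Leaving out 1 library at a time gave 10 to 24 pathway genes and 1317 to 3288 of all genes with ADP-heptose against non-stimulated, 0 to 4 and 38 to 171 with flagellin, and 8 to 21 and 912 to 2721 between the stimuli, with the highest of each without ADP-heptose replicate 3 and the lowest, in the same order, without non-stimulated replicates 1 and 3, non-stimulated replicate 1 and flagellin replicate 1, and flagellin replicate 2. The cause was not tested. Depth limits NOTUM, with 5 to 26 counts, and LEF1, with 0.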
